A study of Mus musculus with 65 samples.

Results

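Nkx2-2, Nkx2-9 and the antisense transcript Nkx2-2os were followed through the differentiation of mouse ES cells towards ventral neural progenitors. The genes were chosen by symbol, as 3 rows of the 25239 in the expression table, and each was read in all 25 groups of day, SAG concentration and cell type. The study used HM1 cells, an established line of mouse ES cells, so that all libraries share a single genetic background. Cells were taken to the neuromesodermal progenitor (NMP) stage by day 3 and then received retinoic acid with 0, 10, 100 or 500 nM SAG, a small molecule that activates the Shh pathway through Smoothened. On days 4, 5 and 6 intracellular transcription factors were stained in fixed cells, the cells were sorted by them, and RNA from each sort was sequenced. All progenitor gates required SOX2.

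The gates bear directly on one of the members. Cells positive for NKX2.2 and negative for OLIG2 were collected as p3, the most ventral domain considered here. Cells positive for OLIG2 were collected as pMN, with NKX2.2 double positives left out. Cells with NKX6.1 and PAX6 were p2, and cells with PAX6 alone were p0-1, the dorsal pair of domains sorted together. The difference in Nkx2-2 RNA between p3 and other cells is therefore a check of the sort and is given as a description, whereas Nkx2-9 was not part of any gate. NMPs at day 3, before SAG and retinoic acid, gave 3 libraries. There were 17 libraries of p0-1 (0 and 10 nM SAG), 15 of p2 (10 and 100 nM), 15 of pMN and 15 of p3 (both 100 and 500 nM). Replicates were separate differentiations. Totals ran from 7615114 to 13484815 reads per library, and 9718 to 15963 genes had at least 1 read. The library with 9718 genes was p3 at 100 nM on day 4, which is the only library of its group and stands apart from the rest, so results over day 4 of p3 are given with and without it. In sorted bulk samples fewer cells with a transcript and less of it per cell cannot be told apart.

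Nkx2-2 and Nkx2-9 encode homeodomain transcription factors of the NK2 family. In the ventral neural tube both lie downstream of Shh, and both are known for specifying the p3 domain, from which V3 interneurons arise. They act mainly as repressors together with co-repressors of the Groucho (Tle) family. NKX2.2 and PAX6, and NKX2.2 and OLIG2, restrain one another across the boundary between p3 and pMN. Nkx2-2os is transcribed from the opposite strand of the Nkx2-2 locus.

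In mm10, Nkx2-2 lies on the minus strand of chromosome 2, from 147177546 to 147186402, with 2448 exon bases in 3 blocks. Nkx2-9 lies on the minus strand of chromosome 12, from 56611397 to 56613284, with 1256 exon bases in 2 blocks. Nkx2-2os runs on the plus strand of chromosome 2 from 147184083 to 147331681, and 278 of the exon bases of Nkx2-2 are also exon bases of Nkx2-2os. The library kit does not mark strand, so reads from those 278 bases cannot be told apart between the genes.

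How far the reads of these related genes can be separated was read from the transcripts of GRCm38. At a word length of 30 bases no word is shared between the transcripts of Nkx2-2 and Nkx2-9. Of the 2872 words of Nkx2-2, 260 (9.05%) also occur in another gene, and 251 of those are in Nkx2-2os. Of the 1213 words of Nkx2-9, 27 (2.23%) occur in another gene.

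The 250 bases before each start are shown because both genes differed between cell types and are known targets of Shh signalling. They are RefSeq sequence of GRCm38.p6, minus strand, at chr2:147186403-147186652 for Nkx2-2 and chr12:56613285-56613534 for Nkx2-9. Capitals mark matches to the letters CACTTGA, a core of NK2 sites, and CCACCCA, a core of sites for the GLI factors that carry the Shh signal.
Nkx2-2: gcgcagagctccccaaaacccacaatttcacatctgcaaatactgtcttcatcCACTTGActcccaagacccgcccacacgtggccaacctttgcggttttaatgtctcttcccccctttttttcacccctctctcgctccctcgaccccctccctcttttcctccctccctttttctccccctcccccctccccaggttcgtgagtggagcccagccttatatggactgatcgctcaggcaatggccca
Nkx2-9: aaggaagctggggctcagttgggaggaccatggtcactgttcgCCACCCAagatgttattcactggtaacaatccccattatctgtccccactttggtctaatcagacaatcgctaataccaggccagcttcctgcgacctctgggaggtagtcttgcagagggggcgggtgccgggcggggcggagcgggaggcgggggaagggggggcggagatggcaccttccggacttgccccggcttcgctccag
Both strands were searched, and the motifs GACCACCCA and CCACCCA overlap, since the latter is part of the former. CACTTGA begins 197 bases before the start of Nkx2-2 and is found in 2.68% of 32851 mouse promoter windows. CCACCCA begins 207 bases before the start of Nkx2-9 and is found in 8.11% of them. The longer GLI letters GACCACCCA (0.225% of windows) and the TATA letters TATAAA (12.4%) are in neither window. These matches describe the sequence only.

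Nkx2-9 was the most abundant member, also per length of transcript. Its mean fell along the ventral to dorsal order of the sorted cells, whose groups also differ in SAG. On days 5 and 6 Nkx2-9 had 1262 ± 577 normalised reads in p3 (SD, n = 11), 463 ± 364 in pMN (n = 11) and 24.8 ± 39.1 in p2 (n = 12), and it had 0 reads in all 12 libraries of p0-1. Normalised reads are the authors' read counts divided by a size factor per library. A count of 0 in p0-1 still allows 3 reads per library, worth 2.92 normalised reads. Against that limit Nkx2-9 was at least 432-fold higher in p3 and at least 159-fold higher in pMN. Nkx2-2 was found mainly in p3 on the same days, with 254.8 ± 90.9 normalised reads in p3, 15.8 ± 30.9 in pMN, 0.564 ± 1.61 in p2 and 0 in p0-1. In limma Nkx2-9 was called higher in p3 than in p2 (7.86 on the log2 scale, SE 0.70) and in p0-1, and higher in pMN than in p0-1, in contrasts with 1.27%, 1.43% and 0.96% of all genes called. The 2.24 between p2 and p0-1 did not pass (SE 0.68, adjusted p = 0.170, beside 0.322% of genes). At 10 nM, which p2 and p0-1 share, Nkx2-9 differed by 0.38 on day 5 and 0.37 on day 6 (SE 1.36 each). Neither p3 nor pMN shares a concentration with p0-1, so cell type and SAG cannot be told apart there. Nkx2-2os had 1 read in an NMP library (replicate 1), 2 reads in a p3 library (day 5, 500 nM, replicate 2) and 0 in the other 63. It failed the minimum mean of 10 for testing, which the other members passed. Without that minimum it was called in 0 of 61 limma contrasts, 3 of which had an unadjusted p under 0.05, and the lowest adjusted p was 0.365.

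**Figure D1:**
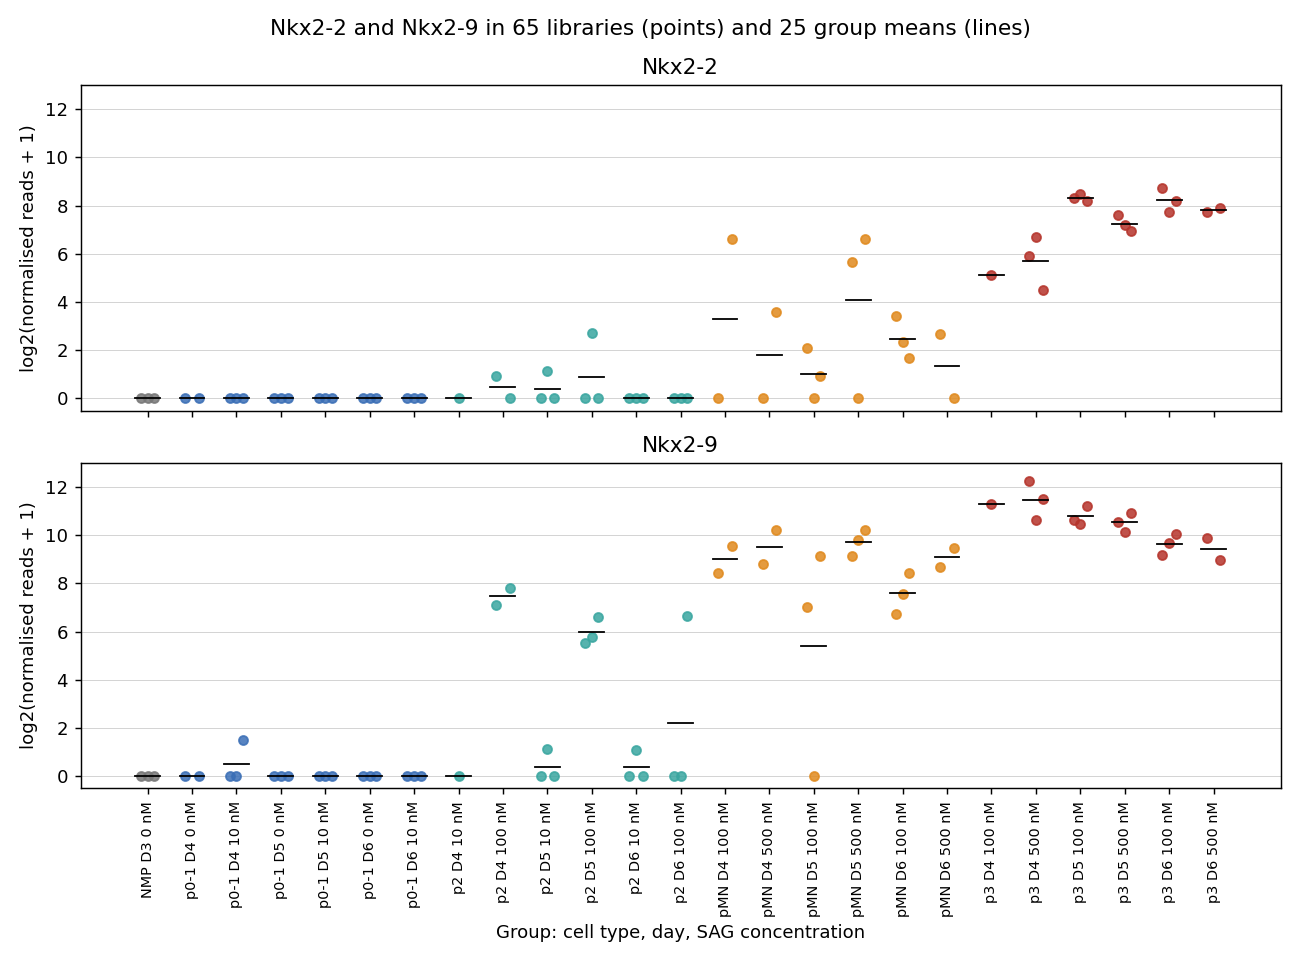
Levels of Nkx2-2 (top) and Nkx2-9 (bottom) as log2(normalised reads + 1) in the 65 libraries (points, coloured by cell type), with lines at the 25 group means. Nkx2-2 stays at or near 0 outside p3 and some pMN libraries, whereas Nkx2-9 is high in p3, intermediate in pMN and present in p2 at 100 nM.

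Lengths differ between the genes, so their levels were compared per kb of exon. On that scale Nkx2-9 had 1005 ± 460 normalised reads per kb in p3 on days 5 and 6 and Nkx2-2 had 104 ± 37.1 (n = 11 each). In pMN the values were 369 ± 290 for Nkx2-9 and 6.45 ± 12.6 for Nkx2-2. Duplicate reads were left out by the authors, which can lower the count of a short and abundant transcript such as Nkx2-9 more than that of Nkx2-2.

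To establish when the genes appear, day 4 was compared with NMPs. Neither Nkx2-2 nor Nkx2-9 had a read in any of the 3 NMP libraries. One day after SAG, Nkx2-9 had 2503 normalised reads in the p3 library at 100 nM and 4822, 1601 and 2870 in those at 500 nM. In pMN it had 345 and 752 at 100 nM and 442 and 1195 at 500 nM. The limits on NMPs put Nkx2-9 at least 891-fold higher in p3 (mean 2949 ± 1358, n = 4) and at least 207-fold higher in pMN (684 ± 383, n = 4). Both differences passed the call, a limma adjusted p below 0.01 with a change of more than 2-fold, at adjusted p = 9.03e-09 and 5.47e-07. The 3 p3 libraries at 500 nM alone averaged 3098. Of all 13964 genes tested, 8.43% were called between p3 and NMPs and 2.53% between pMN and NMPs. In p2 on day 4 Nkx2-9 differed from NMPs by 3.73 (adjusted p = 0.229, beside 1.53% of genes). Nkx2-2 had 54.4 ± 36.0 normalised reads in p3, at least 16.4-fold above NMPs, and averaged 61.3 in the 3 libraries at 500 nM. Since p3 cells were collected for NKX2.2, that difference is a description as well.

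The p3 and pMN cells were compared next, over days 5 and 6. Nkx2-9 had a lowest, median and highest value of 505, 1135 and 2394 normalised reads in p3 and 0, 414 and 1183 in pMN. All 11 p3 libraries lay above the pMN median, but the ranges overlapped. The difference on the log2(value + 1) scale was 2.15 (SE 0.72, 95% interval 0.70 to 3.61), which did not pass the call in limma (adjusted p = 0.154). A permutation test with 100000 resamples on Nkx2-9 alone gave p = 0.00062, or 0.0067 adjusted by Benjamini-Hochberg over the 54 comparisons of single genes made here. Those 54 include comparisons of Nkx2-2 between p3 and other cells, which the sort sets and which can lower the adjusted values of the rest. The permutation test took libraries as independent, although those with the same replicate number may share a differentiation. In this contrast 0.695% of all genes were called. Without the pMN library of day 5 at 100 nM replicate 2, in which Nkx2-9 had 0 reads, the difference was 1.48 (SE 0.61, adjusted p = 0.332).

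Nkx2-2 had a lowest, median and highest value of 121, 236 and 426 normalised reads in p3 and 0, 3.23 and 98.1 in pMN on the same days. The ranges did not overlap, and the fitted difference was 5.67 on the log2 scale (SE 0.65), in the direction the sort on NKX2.2 sets. By edgeR it was 5.34 and missed the call (adjusted p = 0.039). In 3 of the 11 pMN libraries there were no Nkx2-2 reads. The highest values in pMN were those of day 5 at 500 nM, where replicates 1 and 3 had 50.1 and 98.1 and replicate 2 had 0.

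Divided by SAG, the Nkx2-9 values of p3 and pMN were apart at 100 nM and overlapped at 500 nM. At 100 nM on days 5 and 6 the 6 p3 libraries had 1306 normalised reads on average and the 6 pMN libraries 222. An exact two-sided permutation test gave p = 0.00217, the smallest it can give with 6 against 6, and 0.0146 adjusted over the 54 comparisons. At 500 nM the means were 1208 in p3 and 752 in pMN, and the exact permutation p was 0.183 (n = 5 each, adjusted 0.276). The change of the p3 to pMN difference between the concentrations was −3.12 on the log2 scale (95% interval −6.03 to −0.21), where the median of all genes was 0.42, and did not pass the call (limma adjusted p = 0.503). Without the pMN library at 0 it was −1.77 (SE 1.22).

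The mean of Nkx2-9 was higher in p3 than in pMN on each day. On day 4 the 4 p3 libraries, with 1601 to 4822 normalised reads of Nkx2-9, lay above the 4 pMN libraries, with 345 to 1195, at an exact permutation p of 0.0286 (adjusted 0.0771), the smallest it can give. The 3 p3 libraries at 500 nM, from 1601 upwards, lay above them without the one that stands apart. On day 5 the exact p was 0.00433 (n = 6 each, adjusted 0.0234) and on day 6 it was 0.0317 (n = 5 each, adjusted 0.0816), with overlap on both days. In limma at 100 nM the differences of Nkx2-9 were 2.29, 5.38 and 2.04 on days 4, 5 and 6 (SE 2.04, 1.36 and 1.36). They missed the call, beside 7.1%, 0.0573% and 0.179% of all genes, and that of day 4 rests on the p3 library that stands apart. At 500 nM the differences were smaller, 1.95, 0.83 and 0.36 on the same days (SE 1.52, 1.36 and 1.67), and missed the call too. There limma called 0%, 0% and 0.0358% of all genes, and 568, 619 and 859 genes had an unadjusted p under 0.05. Between p3 and p2 at 100 nM, Nkx2-9 differed by 4.80 on day 5 (adjusted p = 0.100, beside 0.0931% of genes) and was called on day 6 at 7.41 (SE 1.36, adjusted p = 0.00092, beside 1.21%).

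Genes listed for other cell types also differed between p3 and pMN over days 5 and 6, where limma called 0.695% of all genes. Of the 5 genes listed for the floor plate, the ventral midline, 4 were tested and 3 were called higher in p3, with a median of 3.755 against −0.09 over all genes. They were Foxa2 (5.55, adjusted p = 0.0052), Shh (5.44) and Ntn1 (2.07). Foxa2 does not mark the floor plate alone, since the paper reports its expression in p3 progenitors. It had reads in 11 of 11 p3 libraries and 6 of 11 pMN libraries. Beside a floor plate culture, the paper saw little expression of floor plate markers in its spinal cord conditions by day 6. The summed normalised reads of the floor plate list ran from 3190 to 7589 on day 5 and 8348 to 21320 on day 6 in p3, and from 1472 to 2209 and 1139 to 3132 in pMN. Ferd3l was at 0 in all pMN libraries and in p3 on day 4. Of 5 motor neuron genes, 3 were called lower in p3, Lhx3 (−6.55), Chat (−4.17) and Isl1 (−4.07), with a median of −4.07. The motor neuron list summed to 0 to 432 in p3 and 432 to 2580 in pMN on day 5, and to 77.1 to 2292 and 1340 to 6118 on day 6. Whether floor plate cells or motor neurons were present and had a part in the difference of Nkx2-9 was not tested.

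Partners of the members in the network were read in the same contrast, where limma called 0.695% of all genes. Of 14 genes listed for the ventral network, all were tested, Foxa2 and Shh were called higher in p3 and Pax6, which NKX2.2 opposes, was called lower (−3.39, SE 0.41, adjusted p = 1.91e-07). Pax6 had 223 ± 215 normalised reads in p3 and 1525 ± 567.7 in pMN (n = 11 each). The median of the list was −0.24. Olig2, whose protein gated pMN, had 823 ± 489 in p3 and 3574 ± 1322 in pMN, and its RNA missed the call (−2.88, adjusted p = 0.069). Ptch1, a target of Shh, had 4221 ± 869 in p3 and 4574 ± 823 in pMN (−0.16, SE 0.20). Of 5 Groucho co-repressor genes 0 were called by limma and by edgeR and 1, Tle2, by DESeq2, while 3 had an unadjusted p under 0.05 in limma. In this contrast DESeq2 called 5.61% of all genes and edgeR 0.365%. Tle1 came nearest to the call in limma (−0.98, adjusted p = 0.070).

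Other NK genes were mostly silent. Of 11 listed, 3 were tested (Nkx1-2, Nkx6-1 and Nkx6-2) and 0 were called between p3 and pMN by limma, edgeR or DESeq2, with 1 at an unadjusted p under 0.05 in each. Nkx6-2 had 1308 ± 516 normalised reads in p3 and 452 ± 275 in pMN, a difference of 2.21 (SE 0.88, adjusted p = 0.274). Nkx6-1 had 591 ± 184 in p3 and 492 ± 170 in pMN (0.27, SE 0.51, adjusted p = 0.899). Nkx2-4, which lies 92.2 kb from Nkx2-2, was listed at 0 in all libraries.

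For the step from pMN to p2, Nkx2-9 passed the call and Nkx2-2 did not. In p2 at 10 nM it had no read on day 4 and at most 1 read per library on days 5 and 6. At 100 nM it had 138 and 224 normalised reads on day 4, 45.2, 53.6 and 97.0 on day 5, and 0, 0 and 99.4 on day 6. Over days 5 and 6 Nkx2-9 was higher in pMN than in p2 by 5.71 on the log2 scale (SE 0.70, limma adjusted p = 7.23e-07), which passed the call beside 0.107% of all genes. It was higher in 10 of 11 pMN libraries than the p2 median. The library labelled pMN day 5, 100 nM, replicate 2 was the exception at 0, and without it the difference was 6.38 (SE 0.59). When only the pMN and p2 libraries entered the fit the adjusted p was 0.012 and the difference no longer passed the call. Nkx2-2 differed by 1.91 (SE 0.63, adjusted p = 0.200).

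The pMN and p2 groups also differ in SAG, so they were compared at 100 nM, which they share. On day 5 Nkx2-9 had 131, 0 and 560 normalised reads in pMN and 45.2, 53.6 and 97.0 in p2, and the ranges overlapped. On day 6 pMN had 105, 189 and 349, all above the 0, 0 and 99.4 of p2. With 3 libraries against 3 the exact permutation test cannot go below p = 0.1, which it gave for day 6 (adjusted 0.169). Over both days the means were 222 and 49.2 (n = 6 each) and the exact p was 0.184 (adjusted 0.276). In the contrast pooled over days 5 and 6 and all concentrations, SAG differs between the cell types. There Olig2 (4.52, limma adjusted p = 0.0020), Olig1 (5.38) and 3 of the 5 motor neuron genes were also called higher in pMN.

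The response to SAG within a cell type was then examined. In p2 on days 4 to 6, Nkx2-9 had 82.2 ± 75.1 normalised reads at 100 nM (n = 8) and 0.340 ± 0.581 at 10 nM (n = 7). Reads were present in 6 of the 8 libraries at 100 nM, and no library at 10 nM had more than 1 read. On days 5 and 6 the difference was 3.72 (SE 0.96, unadjusted p = 0.000345). It missed the call in limma (adjusted p = 0.134), where 0.0358% of all genes passed, and the exact permutation test gave p = 0.0606 (n = 6 each, adjusted 0.131).

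In pMN, Nkx2-9 had 131, 0 and 560 normalised reads at 100 nM on day 5 and 564, 893 and 1183 at 500 nM. On day 6 it had 105, 189 and 349 at 100 nM and 414 and 704 at 500 nM. All libraries at 500 nM lay above those at 100 nM on each of these days. With so few libraries the exact permutation p was 0.1 on day 5 (adjusted 0.169) and 0.2 on day 6 (adjusted 0.292), each the smallest possible. The ranges met when the days were pooled, because the highest value at 100 nM (560, day 5) exceeded the lowest at 500 nM (414, day 6). On day 4 the concentrations overlapped, with 345 and 752 at 100 nM and 442 and 1195 at 500 nM (a difference of 0.51, SE 1.67). The fitted difference over days 5 and 6 was 2.91 (SE 1.02, 95% interval 0.86 to 4.97, unadjusted p = 0.00648), and the adjusted p was 0.880. In this contrast 0% of genes passed the call in limma, 657 had an unadjusted p under 0.05, edgeR called 0 and DESeq2 called 442. The exact permutation test on Nkx2-9 alone gave p = 0.00866 (n = 5 and 6, adjusted 0.0312). Without the library at 0 the difference was 1.56 (SE 0.89).

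In p3 Nkx2-9 had 1306 normalised reads at 100 nM and 1208 at 500 nM over days 5 and 6, and the ranges overlapped. The limma interval of the difference ran from −2.26 to 1.85 on the log2 scale, which includes a 2-fold change. Its width rests on a spread shared by all 25 groups, pMN among them, and does not measure the spread within p3. Nkx2-2 in p3 had 315, 352 and 291 normalised reads at 100 nM and 196, 146 and 121 at 500 nM on day 5. On day 6 it had 426, 214 and 295 at 100 nM and 211 and 236 at 500 nM. The concentrations were apart on day 5 (exact permutation p = 0.1, the smallest possible, adjusted 0.169) and overlapped on day 6. Over both days the means were 316 ± 70.7 at 100 nM (n = 6) and 182 ± 47.3 at 500 nM (n = 5), with an exact permutation p of 0.00866 (adjusted 0.0312). The limma difference was −0.75 (SE 0.92, adjusted p = 0.821), in a contrast with 0.0286% of genes called and a median of 0.33 over all genes. The concentrations also differed in the number of genes detected, which was 10338 to 12543 in the p3 libraries at 100 nM and 12474 to 14088 at 500 nM. Over the 11 libraries Nkx2-2 and the number of genes detected had r = −0.44 (permutation p = 0.170, adjusted 0.589) and rho = −0.56 (permutation p = 0.0751, adjusted 0.676). Without the 2 libraries farthest from the median of Nkx2-2, r was −0.30, and within the days it was −0.75 (day 5) and −0.042 (day 6). The part of detection in the difference of Nkx2-2 was not tested.

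Over the days in p3 the members stood in opposite order, Nkx2-2 being lowest on day 4 and Nkx2-9 highest. Nkx2-2 had 33.7 normalised reads at 100 nM and 59.8, 103 and 21.4 at 500 nM on day 4, against the values from 121 to 352 given above for day 5. All 6 libraries of day 5 and all 5 of day 6 lay above all 4 of day 4, and the means were 54.4 ± 36.0, 237 ± 95.7 and 276 ± 90.4. The exact permutation test gave p = 0.00952 for day 5 against day 4 (adjusted 0.0321) and 0.0159 for day 6 against day 4 (adjusted 0.0476), each the smallest it can give. Without the library that stands apart the groups still did not overlap, at exact permutation p = 0.0238 and 0.0357 (adjusted 0.0677 and 0.0839). In limma the differences were 2.38 (SE 1.07, adjusted p = 0.169) and 2.61 (SE 1.11, adjusted p = 0.117), which did not pass the call beside 6.41% and 7.78% of all genes. At 500 nM alone they were 1.55 (SE 1.23) and 2.11 (SE 1.38), beside 0.172% and 0.308%.

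For Nkx2-9 the order of the days was reversed. On day 5 it had 1576, 1424 and 2394 normalised reads at 100 nM and 1509, 1135 and 1940 at 500 nM. On day 6 it had 573, 811 and 1058 at 100 nM and 952 and 505 at 500 nM. Every library of day 6 lay below every library of day 5 and day 4, and day 5 overlapped day 4. How often other genes keep these days apart is not given. The means were 2949 ± 1358 on day 4, 1663 ± 442 on day 5 and 780 ± 238 on day 6.

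The exact permutation test for Nkx2-9 in p3 gave p = 0.00433 for day 6 against day 5 (adjusted 0.0234) and p = 0.0159 for day 6 against day 4 (adjusted 0.0476), both the smallest it can give. For day 5 against day 4 the exact p was 0.0476 (adjusted 0.107). Without the library that stands apart, day 6 still did not overlap day 4 (exact p = 0.0357, adjusted 0.0839). The limma differences were −1.13 between days 6 and 5 (SE 1.02, adjusted p = 0.773) and −1.84 between days 6 and 4 (SE 1.23, adjusted p = 0.366). Neither passed the call, beside 0.0215% of all genes for the former and 7.78% for the latter. Both SEs rest on the spread over all groups rather than on p3 alone. Over the same days the median sum of the floor plate list in p3 was 3525, 5808 and 8590 on days 4, 5 and 6, and that of the motor neuron list was 9.80, 155 and 1016. Shh and Ntn1 of the former and Isl1 and Slc18a3 of the latter passed the call between days 6 and 4, and at 500 nM alone Isl1 did. Whether floor plate cells or motor neurons had a part in the differences by day was not tested. The 4 markers listed for V3 neurons summed to 0 in 12 of the 15 p3 libraries, all of day 6 among them. The others were replicate 3 of day 5 at 100 nM (0.729 normalised reads) and at 500 nM (14.6), and replicate 1 of day 4 at 500 nM, where the sum of 157 was all Neurog3, a bHLH factor. Uncx was at 0 in p3 on all days.

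**Figure D2:**
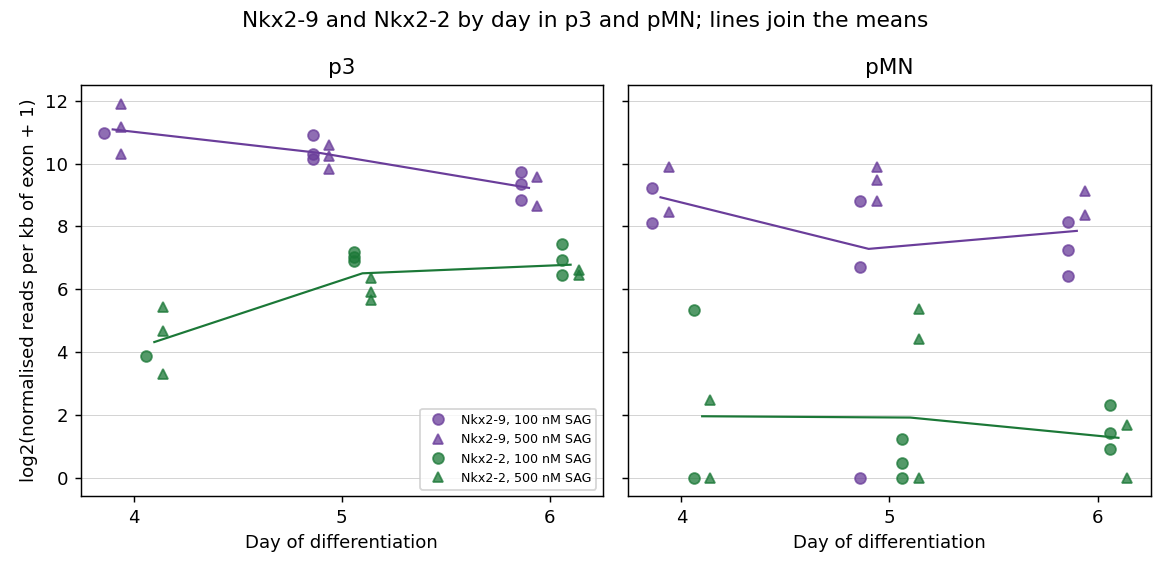
Nkx2-9 and Nkx2-2 on a log2(normalised reads per kb of exon + 1) scale by day in p3 (left) and pMN (right), with circles for 100 nM SAG, triangles for 500 nM and lines joining the means. In p3 the Nkx2-9 and Nkx2-2 lines approach each other from day 4 to day 6, and in pMN the Nkx2-2 points scatter from 0 upwards.

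The opposite courses were put on a single scale as the ratio of Nkx2-9 to Nkx2-2 per kb in each library. The log2 ratio in p3 was 6.82 ± 1.32 on day 4 (SD, n = 4), 3.84 ± 0.68 on day 5 (n = 6) and 2.45 ± 0.72 on day 6 (n = 5), so that Nkx2-9 exceeded Nkx2-2 by 113-fold, 14.3-fold and 5.48-fold at the mean. A size factor cancels in a ratio within a library, up to the pseudocount of 1. The difference in log2 ratio was −2.98 between days 5 and 4 (exact permutation p = 0.0191) and −1.38 between days 6 and 5 (p = 0.00866). After adjustment over 3 comparisons of the ratio the values were 0.0191 and 0.0130. The other comparison is p3 against pMN, on which the sort for NKX2.2 bears. Neighbouring days overlapped and days 4 and 6 did not (a difference of −4.37, exact p = 0.0159, the smallest possible). Without the library that stands apart the difference was −2.88 on day 5 (exact p = 0.0476) and −4.26 on day 6 (exact p = 0.0357) against day 4. There SAG differs along with day, since day 4 then holds 500 nM only. At 500 nM the log2 ratios were 7.27, 4.91 and 7.97 on day 4 and 3.90, 3.92 and 4.95 on day 5, which overlapped. On day 6 they were 3.13 and 2.06.

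In pMN the log2 ratio was 7.66 ± 2.67, 5.96 ± 3.54 and 7.12 ± 2.26 on the successive days. The SDs were larger than in p3, and the Nkx2-2 reads of these libraries ran from 0 upwards. Over days 5 and 6 the ratio was 3.21 ± 0.98 in p3 and 6.49 ± 2.94 in pMN (n = 11 each), a gap on which the sort for NKX2.2 bears by design.

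**Figure D3:**
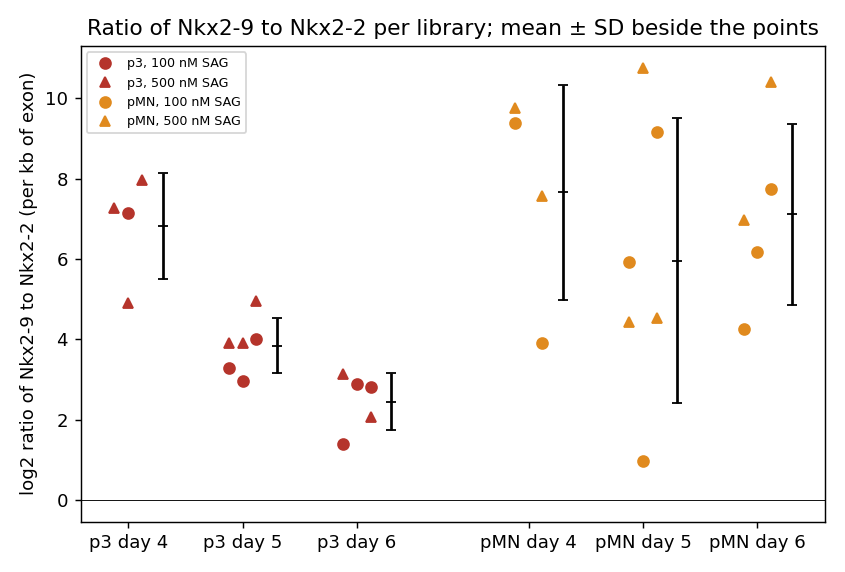
Log2 ratio of Nkx2-9 to Nkx2-2, per kb of exon, in each p3 and pMN library by day (circles 100 nM, triangles 500 nM), with mean ± SD beside the points. The mean p3 ratio is 6.82 on day 4 and 2.45 on day 6, and the pMN libraries spread widely.

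In pMN the libraries of different days overlapped for both genes. Nkx2-9 had means of 684 ± 383, 555 ± 446 and 352 ± 232 normalised reads on days 4, 5 and 6. Nkx2-2 in pMN had 0 and 96.0 at 100 nM and 0 and 11.2 at 500 nM on day 4. At 100 nM it had 3.23, 0 and 0.921 on day 5 and 9.76, 4.08 and 2.16 on day 6, and at 500 nM on day 6 it had 5.41 and 0. One of the 4 libraries of day 4, pMN at 100 nM replicate 3, was thus within the range of p3 on that day. Neither gene passed the call between the days, beside 0.695% of genes between days 5 and 4 and 0.0286% between days 6 and 5.

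Whether the members varied together from library to library was examined within p3 on days 5 and 6 (n = 11). Pearson's r between Nkx2-2 and Nkx2-9 was −0.24 (permutation p = 0.479) and Spearman's rho was −0.21 (permutation p = 0.536), and adjusted over the 9 relations computed the values were 0.589 and 0.800. Leaving out the 2 libraries farthest from the median of Nkx2-2 turned r to 0.32, and within the days it was 0.15 (day 5) and −0.31 (day 6). In pMN, Nkx2-9 and Olig2 had r = 0.70 (permutation p = 0.0681, adjusted 0.589) and rho = 0.32 (permutation p = 0.341, adjusted 0.800). Without the 2 libraries farthest from the median of Nkx2-9, r was 0.17, so the pooled value leans on those libraries. Within the days r was 0.83 (day 5, n = 6) and 0.85 (day 6, n = 5). None of the 9 relations passed the adjustment.

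**Figure D4:**
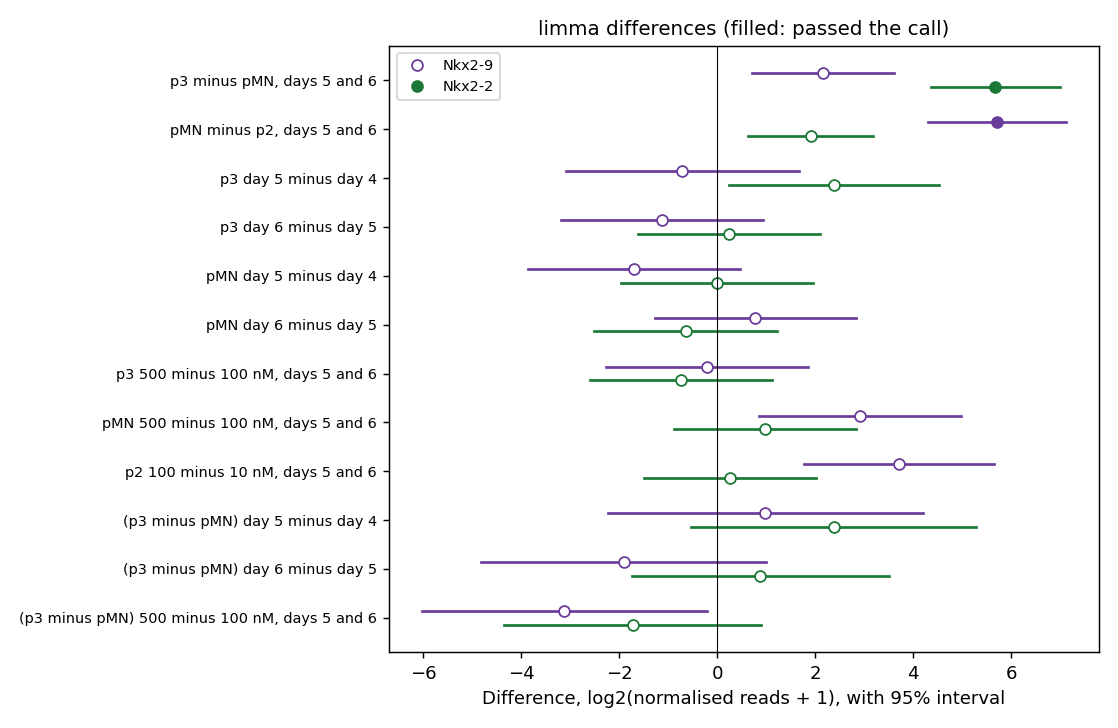
Differences of Nkx2-9 and Nkx2-2 from the limma model on the log2(normalised reads + 1) scale, with 95% intervals, for cell types, days, SAG and their interactions. Filled points passed the call, which in these contrasts were Nkx2-2 between p3 and pMN and Nkx2-9 between pMN and p2.

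At the Nkx2-2 locus, a non-coding RNA showed the pattern most like that of Nkx2-2 by Pearson correlation. The gene 6430503K07Rik lies on the plus strand of chromosome 2, from 147187424 to 147188482, about 1.0 kb upstream of the Nkx2-2 start. Across the 25 group means its Pearson correlation with Nkx2-2 was 0.92, the first of 13963 genes, and its Spearman correlation was 0.86, the third, which is a description over groups that share libraries of the same cell types. In p3 it had 132 normalised reads at 100 nM and 70.2, 111 and 79.7 at 500 nM on day 4, and 426, 0 and 391 at 100 nM and 37.6, 138 and 87.6 at 500 nM on day 5. On day 6 it had 137, 554 and 319 at 100 nM and 96.8 and 256 at 500 nM. It was at 0 in all 4 pMN libraries of day 4, had reads in 6 of the 11 of days 5 and 6, and was at 0 in all p2 and p0-1 libraries of those days.

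Over days 5 and 6 the mean of 6430503K07Rik was 222 in p3 and 32.7 in pMN, a difference of 3.75 (SE 0.85, limma adjusted p = 0.00875) that passed the call. The gene stood out by its correlation with Nkx2-2 over groups that include these libraries, so its call is a description. The call held in 8 of 22 fits without a library, where the difference ran from 3.14 to 4.47 and the adjusted p from 0.000158 to 0.0773. By edgeR (2.79, adjusted p = 0.490) and DESeq2 (2.83, adjusted p = 0.497) it did not pass. In the deposited annotation Nkx2-2 does not reach this position. The kit does not mark strand, so reads of any longer Nkx2-2 transcript could not be told apart from those of 6430503K07Rik. Of the other 5 genes within 500 kb of Nkx2-2, Kiz and Xrn2 were tested and neither was called. Near Nkx2-9, Mbip, Pax9 and Slc25a21 were tested and none was called, and Nkx2-1 had a mean of 3.11 normalised reads over all libraries.

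**Figure D5:**
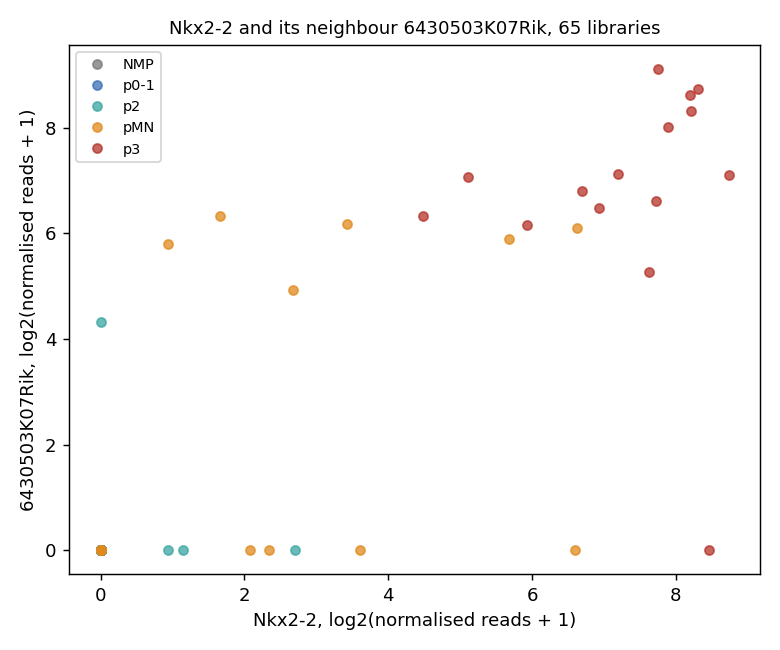
Nkx2-2 (horizontal) and 6430503K07Rik (vertical) as log2(normalised reads + 1) in 65 libraries coloured by cell type. Most p3 libraries are high for both genes, and NMP, p2 and p0-1 libraries are at or near 0 for both, apart from 1 p2 library with 19.0 normalised reads of 6430503K07Rik, whereas some pMN libraries have 6430503K07Rik with little Nkx2-2.

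After 6430503K07Rik, the genes whose group means followed Nkx2-2 most closely were Lrp1 (r = 0.88), a large receptor of the LDL receptor family, Cobl (0.83), an actin nucleator, Lgmn (0.83), a lysosomal protease, and Klf3 (0.82), a zinc finger repressor. By Spearman correlation these 4 held ranks 68, 13, 8 and 52, so that the order depends on the measure. Nkx2-9 held rank 10 in that order, at r = 0.81. For Nkx2-9 the closest were Pltp (0.87), a phospholipid transfer protein, Col18a1 (0.85), a basement membrane collagen, Vstm2b (0.84), Ptch1 (0.83), the Shh receptor and target, and Timp3 (0.82), an inhibitor of metalloproteases, at ranks 7, 5, 1, 8 and 11 by Spearman correlation. Vstm2b had mean values of 2192, 1384 and 970 normalised reads in p3 on days 4, 5 and 6, and Timp3 had 6978, 2683 and 1800. Ptch1 had 7716, 4263 and 4170, Pltp 2047, 1654 and 1567, and Col18a1 18580, 16760 and 17170. These groups were among those used to choose the genes, so an order by day shared with Nkx2-9 is no separate observation.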

How the data were processed

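RNA from fixed and sorted cells was amplified as full-length cDNA with a kit that does not mark strand, and the authors aligned the reads with STAR in an nf-core pipeline to mm10 with spike-in sequences. Gene counts came from featureCounts without duplicate reads and libraries that failed quality control were removed. The strand setting is not given in the sources used here. The deposited values are an expression signal, read counts that the authors divided by a size factor per library. Here 1 read was worth 0.717 to 1.359, and all values were whole multiples of that, so whole reads were recovered. Reads carry no molecular identifiers, so limits from counts cover counting error only. The positions, deposited as other values per the file headers, were read from the deposited gene annotation.

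Differences were tested with limma 3.58.1 (R 4.3.3) on log2(value + 1), a pseudocount of 1, with a mean for each of 25 groups over 65 libraries, an intensity trend, and a minimum mean of 10, which 13964 genes passed (40 residual and 7.43 prior degrees of freedom). A log2 change on this scale understates that of low genes. Calls required an adjusted p (Benjamini-Hochberg) under 0.01 and a change over 2-fold. Comparisons over days 5 and 6 average group means. In the main fit each gene has a single spread over all 25 groups, so an SE for p3 also carries the scatter of other cells. The study states no test for these data. Single genes and the ratio were also compared by two-sided permutation tests over libraries (scipy 1.17.1, exact unless 100000 resamples are named). These tests shuffled the libraries freely, without regard to day, SAG or replicate number within the groups compared. Their adjusted values come from families that hold comparisons on which the sort bears. Libraries of a shared differentiation are not independent, so the p-values do not measure the spread between differentiations. The share of all genes whose groups do not overlap is not given, so groups that lie apart are a description. Genes most like a member were the 5 with the highest Pearson correlation over 25 group means. The members, lists and tests were chosen with earlier results of these data known. Some listed genes are not reported here. Tried as alternatives were a pseudocount of 10, other minimum means, the compared libraries alone, equal library totals, a replicate block, edgeR 4.0.16 and DESeq2 1.42.0 on the recovered reads, and leaving out each library. The contrasts at 500 nM alone, the comparisons of day 6 with day 4, the single-gene permutation tests, the same-numbered pairs and the checks of 6430503K07Rik were added after seeing the data.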

Additional observations from a re-analysis of the deposited data

Results flagged for a closer look

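For Nkx2-2 and Nkx2-9 together, 16 sets of 4 to 10 libraries of a cell type and day were examined. A single library lay far from the others in 3 of them, all 3 for Nkx2-9. Chance alone sets such a library apart in some sets. In p0-1 on day 4, replicate 3 at 10 nM had 1.838 normalised reads, from 2 reads, and the other 4 libraries had 0. In p2 on day 6, replicate 3 at 100 nM had 99.38 normalised reads, and the other 5 libraries, of 10 and 100 nM, had at most 1 read. In pMN on day 5, replicate 2 at 100 nM had 0 reads of Nkx2-9, while the other 5 libraries had 131 to 1183 normalised reads. That library had reads in 11649 genes and 0 reads of Nkx2-2 as well. The sets hold libraries of different SAG concentrations.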

How the results depend on the processing

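For the 22 differences of Nkx2-2 and Nkx2-9 examined, 157 of 169 alternative settings and 333 of 342 fits without a library kept the direction and the side of the threshold. Nkx2-2 between p3 and pMN was 5.34 by edgeR, where the adjusted p of 0.039 misses the call, and Nkx2-2 in p3 between days 5 and 4 was 2.14 with a pseudocount of 10, where it passed the call (adjusted p = 0.0067). Nkx2-9 between pMN and p2 was 5.71 with the compared libraries alone, past the threshold no longer, with fewer libraries behind the variance. The sign turned in differences that passed no threshold, and the cause was not tested. Nkx2-2 in pMN between days 5 and 4 was 0.0035 and became −0.030 with a pseudocount of 10, −0.13 with the replicate block, −0.94 by edgeR and −0.98 by DESeq2, with −1.65 to 1.65 on leaving out a library. Between days 6 and 5 in pMN, leaving out a library gave −1.67 to 0.024 for Nkx2-2 and −0.57 to 1.71 for Nkx2-9, which was −0.42 by edgeR and −0.38 by DESeq2. Nkx2-9 in pMN between days 5 and 4 was 0.21 at 500 nM alone. Nkx2-9 in p3 between 500 and 100 nM ran from −0.44 to 0.020 without a library. The change of the p3 to pMN difference of Nkx2-9 from day 4 to day 5 was −0.15 by edgeR and −0.17 by DESeq2, and −0.36 to 1.92 without a library. The adjusted p of Nkx2-9 between p3 and pMN ran from 0.014 to 0.307 over the alternatives and from 0.037 to 0.332 without a library.

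Counts of called genes moved with the tool. Between p3 and pMN, 97 were called by limma, 59 with a minimum mean of 100, 47 with the compared libraries alone, 51 by edgeR and 782 by DESeq2. Between pMN and p2, 15 were called, 29 with a pseudocount of 10, 9 with a minimum mean of 100, 26 with the replicate block, 5 by edgeR and 587 by DESeq2. Between days 5 and 4 of p3, 895 were called, 537 with the compared libraries alone and 3187 by DESeq2. The same change in pMN gave 97, 1 with the compared libraries alone, 51 by edgeR and 854 by DESeq2. For days 6 and 5 the counts were 3 in p3 (1 to 696 over the settings) and 4 in pMN (0 to 509), and for SAG they were 4 in p3 (0 to 665) and 0 in pMN (0 to 442).

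Libraries of different cell types with the same replicate number deviated together only weakly, with correlations from −0.041 to 0.107 (median 0.032) over 33 pairs, of which 30 were above 0 and 1 over 0.1. Over 62 pairs of different numbers the median was −0.023 and 15 were above 0. Deviations were taken from group means and sum to 0 within a group. The values of different numbers are therefore tied to those of the same number and are no separate contrast. The 30 same-number pairs above 0 are a hint from the data that numbers mark shared differentiations. Within pairs of the same number, day and concentration on days 5 and 6, Nkx2-9 was higher in p3 than in pMN in 10 of 11, replicate 3 of day 6 at 500 nM being the exception. The replicate block, run on these numbers, turned the sign of the 1 result named above and left the other members' calls as they were. With equal totals per library the median of all genes moved by more than 0.1 in 1 of 61 contrasts, and by 0.113 at most. Nkx2-2 has no value under a minimum mean of 100, and the p3 library of day 4 at 100 nM could not be left out alone, since its group has no other. At these depths Nkx2-2os cannot be compared between groups.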
